A study of Oryza sativa with 20 samples.

Results

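A set of rice shoot transcripts stood at least 5 times higher at the end of a 10 min water bath than at 10 h, whether the bath was at 22 °C or at 42 °C. Members were all gene IDs whose level at 10 h was at most 0.2 of that at 10 min, after adding 1 FPKM to each, in control and in heated shoots alike, taking for each ID the table row of highest mean. This rule kept 163 of 37248 gene IDs. Some IDs stand for the same stretch of reads and carry identical values, so the 163 IDs form 151 distinct records, of which 9 hold more than 1 ID. A further 71 IDs met the limit in controls only and 292 in heated shoots only, and these are not members.

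The plants were wild-type rice (Oryza sativa), 2 weeks old and raised in a greenhouse. With the pots inverted, shoots were held under water for 10 min at 22 °C (control) or 42 °C (heated), and recovery followed at 30 °C. Sampling was at 10 and 20 min and at 1, 2 and 10 h after the bath began. Each of the 10 groups held 2 libraries of 3 pooled shoots, and the deposited table gives 1 FPKM value per group (fragments per kilobase of transcript, scaled to sequencing depth), in which the authors had merged both libraries. No level below can therefore carry an SD, depth per library is unknown, and no test across libraries could be run. The labels give no clock time, so time of day cannot be told apart from time since inversion, immersion and the move to 30 °C. The 10 min controls came straight from water at 22 °C and the later controls from air at 30 °C. In whole shoots, less RNA per cell and fewer cells of a type cannot be told apart. Summed FPKM of all records lay between 646228 and 1145806 per group and was highest in heated shoots at 1 h.

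As background, leaf transcripts of plants follow the day. The circadian clock is a loop of transcription factors that repress one another in turn, so that its components peak in sequence from morning to night. Among its outputs are the genes of the light-harvesting antenna, the chlorophyll-binding proteins that feed light energy to the photosystems, whose messenger RNAs are high in light and low in darkness. DREB1 proteins are transcription factors best known for activating cold-response genes, and their own transcripts respond within minutes to cold, touch and other handling.

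The files do not pair gene IDs with names, and the reference table at hand matched 0 of the IDs. Roles below therefore rest on 7 short lists of IDs written from background knowledge and not checked against an annotation. The light-harvesting list placed all of its 11 IDs among the members. The clock list placed 5 of 12, the DREB1 list 2 of 5, and the lists for Rubisco with its activase (4 IDs), jasmonate-response JAZ repressors (9), stress-related WRKY factors (9) and photoperiodic flowering (6) placed none. The remaining 133 records are on no list.

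The members' median was 62.16 FPKM in the 10 min controls. Over the 21160 records averaging 1 FPKM or more, called all records below, it was 7.94 FPKM. The rule cannot be met below 4 FPKM at 10 min, and the 13633 records at or above that in both 10 min groups had a median of 14.72 FPKM, so a higher level is partly built into the choice. Levels in the 10 min controls were at least 1000 FPKM in 17 records, 11 of which are the light-harvesting IDs, and below 10 FPKM in 13. Together the members took 16.1% of all FPKM in the 10 min controls and 14.3% in the shoots heated for 10 min. At 10 h these shares were 1.33% and 0.954%. The median member stood at 3.77 FPKM in the 10 h controls and at 2.81 FPKM in the 10 h heated shoots, and 40 records lay below 1 FPKM in those controls. These values chose the members and are given as a description. The member nearest the limit had a larger ratio of 0.19964 and the nearest record outside it had 0.20067.

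When the decline took place differed among members. In controls 16 records were at 0.5 of their 10 min level or less at 20 min, 29 at 1 h and 57 at 2 h, on the FPKM + 1 scale. Of all records 1.49%, 4.24% and 3.38% were that low at these times. In heated shoots, counted against their own 10 min value, the numbers were 11, 24 and 77 members, against 2.13%, 6.44% and 8.45% of all records. The median member was at 0.95 of its 10 min level at 1 h and at 0.64 at 2 h in controls. In heated shoots it was at 0.86 at 1 h and at 0.48 at 2 h. By the controls alone, 16 records form an early class (0.5 or less at 20 min), 49 a middle class (0.5 or less first at 1 h or 2 h) and 86 a late class that was above 0.5 at all 3 times.

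**Figure D1:**
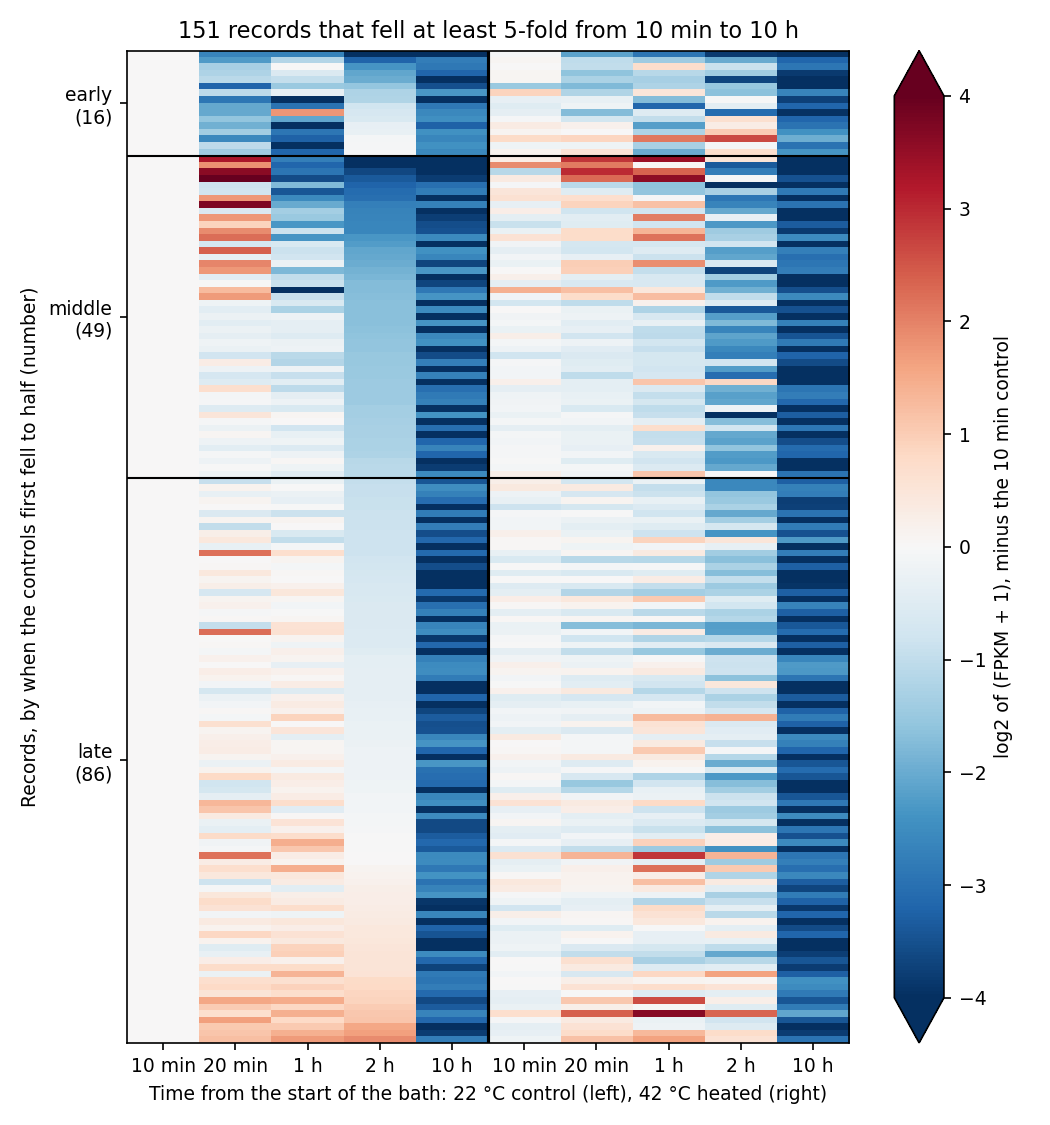
Level of each of the 151 records (rows) in the 10 groups (columns), as log2 of FPKM + 1 minus its own value in the 10 min controls; rows are grouped by when the controls first reached 0.5 of the 10 min level. Blue at 10 h under both baths is the rule itself. The heated value at 2 h lies under the control value in 72 of the 86 late records. It does so in 103 of all 151 members and in 10731 of all 21160 records averaging 1 FPKM or more. The late class asks for a 2 h control above 0.5 of its 10 min level, so its count is partly fixed by its definition.

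Between the ends of the course, the largest share of members called in 1 direction was that called lower at 2 h. A record is called here when its q-value in the authors' deposited table is below 0.05. At 2 h the authors' deposited table called 41 of 151 members lower in heated than in control shoots, or 27.2%, where it called 7.13% of all 21160 records lower. It called 24 members higher, or 15.9%, where the authors' deposited table called 11.9% of all records higher. The median heated-to-control log2 ratio of the members was -0.51 at 2 h, against -0.01 over all records. A ratio below 0 was found in 103 of 151 members and in 10731 of all 21160 records. The rule used neither 2 h group.

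Lower calls also outnumbered higher ones at 20 min, but not at 1 h. The authors' deposited table called 25 members lower at 20 min (16.6%, against 6.52% of all records) and 11 higher (7.28% against 3.51%). At 1 h it called 24 members lower (15.9% against 9.12%) and 27 higher (17.9% against 12.1%) in the authors' deposited table. Median log2 ratios were -0.26 at 20 min and -0.11 at 1 h, with -0.06 and -0.08 over all records, and 112 and 84 of the 151 ratios were below 0. The 1 h median is near 0 and changes sign when groups are rescaled, to 0.0084. Restricting the comparison to the 13633 records at 4 FPKM or more in both 10 min groups, without which the rule cannot be met, gave 8.68% lower and 12.2% higher at 2 h in the authors' deposited table. Both directions were thus more frequent among members than among all records at each of these 3 times, a difference that was not tested. For higher calls at 2 h it was small among records averaging 5 FPKM or more, at 15.2% of members and 14.5% of all. Lower calls there were 27.6% of members and 8.43% of all, by the authors' deposited table.

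In all, 94 of the 151 members, or 62.3%, were called at 1 or more of the 3 times in the authors' deposited table, against 33.1% of all records. Only lower calls were made for 50 members (33.1%, against 15.2% of all records) and only higher calls for 33 (21.9% against 16%) in the authors' deposited table. Calls in both directions at different times were made for 11 (7.28% against 1.95%). From 1 h to 2 h the authors' deposited table repeated a lower call in 17 members (11.3% against 3.15%). It repeated a higher call in 11, and that share of 7.28% is close to the 7.39% of all records. At the ends of the course, which the rule used, the authors' deposited table called 2 members higher and 2 lower at 10 min (1.59% and 2.41% of all records), and 2 higher and 12 lower at 10 h (2.98% and 1.82%).

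**Figure D2:**
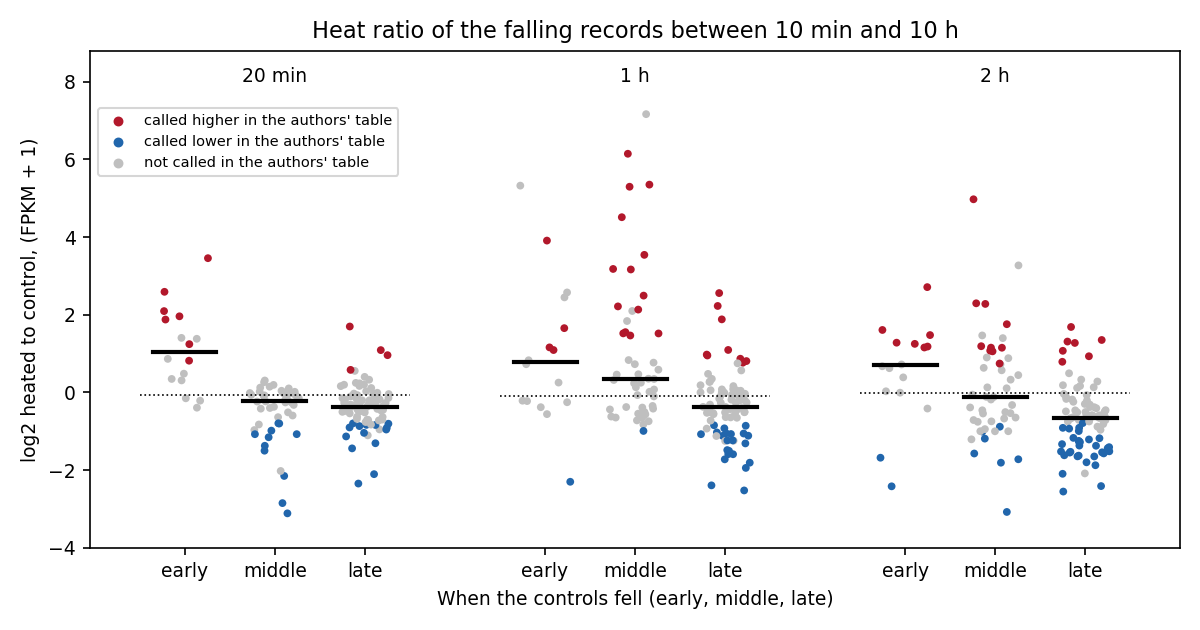
Heated-to-control log2 ratio on the FPKM + 1 scale for each member at 20 min, 1 h and 2 h, split by when the controls fell. Black bars are class medians, and the dotted line is the median over all 21160 records at that time. Colours give the call in the authors' deposited table. At 2 h the late class lies mostly below the line, with a median of -0.67, which is partly fixed by cutting the class on control values.

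Light-harvesting transcripts made up the 8 most abundant members in the 10 min controls and 11 of the first 12. In the 10 min controls the 11 IDs ran from 5809.1 to 11294.1 FPKM with a median of 8811.24, and in shoots heated for 10 min from 5368.69 to 10792.1 FPKM with a median of 7660.49. At the 4 later times the control medians were 7462.92, 6869.33, 3000.18 and 284.43 FPKM. The heated medians were 7028.42, 4605.22, 1641.16 and 161.65 FPKM. The loss between 1 h and 2 h was common to all 11 IDs in both baths. The heated value was below the control value in 11 of 11 IDs at 1 h and at 2 h. It was also below in 11 IDs at 10 min, 10 at 20 min and 10 at 10 h. Of all 21160 records, the heated value was below the control value in 11627 at 1 h and 10731 at 2 h.

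At 20 min, 1 h and 2 h none of these heat differences was called. At 10 h, which the rule used, the authors' deposited table called 3 of the 11 IDs lower, against 1.82% of all records. At 2 h the log2 ratios of the 11 IDs lay between -0.999 and -0.39, with a median of -0.74, and at 1 h between -0.72 and -0.35, with a median of -0.50. The q-values of the 11 at 2 h in the authors' deposited table ran from 0.05 to 0.73. The lowest belonged to OS07G0562700, at 1502.24 FPKM in heated and 3000.18 FPKM in control shoots at 2 h. The highest q was that of OS01G0600900, the most abundant of the IDs in the 10 min controls, whose 2 h levels were 3436.21 FPKM heated and 4488.84 FPKM control (q = 0.73, authors' deposited table).

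How far the antenna transcripts had dropped by 10 h was uneven. OS09G0346500 went from 9647.39 FPKM at 10 min to 36.29 FPKM at 10 h in controls and from 8871.59 to 22.04 FPKM in heated shoots. OS07G0558400 went from 9123.22 to 1288.21 FPKM in controls and from 8095.15 to 1333.03 FPKM in heated shoots. The first had thus lost all but 0.0039 of its control level and the second all but 0.14, although both began near the same level. The 11 IDs together took 11.4% of all FPKM in the 10 min controls and 0.709% in the 10 h controls. The 4 IDs listed for Rubisco and its activase, the carbon-fixing enzyme of the same leaves, took 3.18% and 5.27% in the same 2 groups. High levels of both lists in the 10 min groups are those of green tissue, as the label of shoot says; markers of other tissues were not analysed here.

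**Figure D3:**
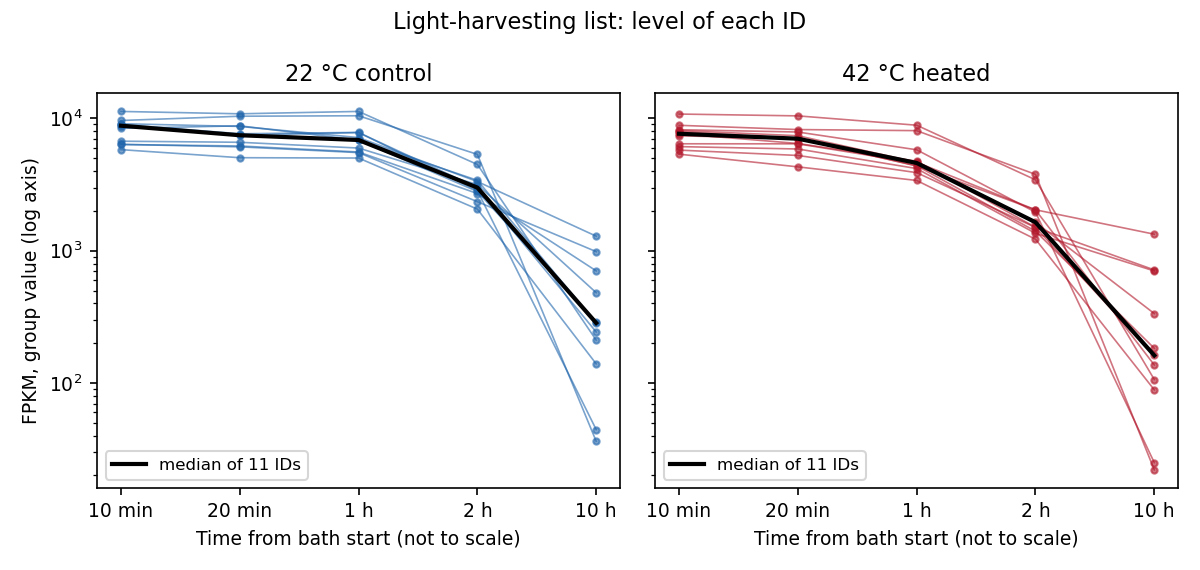
FPKM of the 11 IDs on the light-harvesting list at the 5 times (log axis; times not to scale), controls on the left and heated shoots on the right, with the median in black. Both panels fall between 1 h and 2 h, and the heated median had already gone from 7028.42 FPKM at 20 min to 4605.22 FPKM at 1 h. The 10 h values spread from 36.29 to 1288.21 FPKM in controls.

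In controls the 5 clock IDs were all at or above their 10 min level up to 1 h, and at 2 h they ranged from 0.68 to 3.09 of it. Over the 5 sampling times in order, OS01G0182600 stood in controls at 380.09, 487.65, 521.06, 486.94 and 4.19 FPKM. In heated shoots the same ID stood at 355.06, 391.76, 509.31, 421.51 and 3.82 FPKM. Its q-values at 20 min, 1 h and 2 h were 0.8, 0.98 and 0.9 in the authors' deposited table, so no heat difference was called for this most abundant of the 5.

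OS03G0284100 behaved alike up to 1 h, at 138.5, 142.76 and 147.83 FPKM in controls and 143.35, 145.81 and 142.02 FPKM in heated shoots. At 2 h it stood at 93.35 FPKM in controls and 61.89 FPKM in heated shoots (q = 0.27 in the authors' deposited table), and at 10 h at 0.39 and 0.46 FPKM. OS07G0695100 stood at 34.66, 37.7 and 39.41 FPKM in controls and at 38.97, 44.94 and 44.29 FPKM in heated shoots up to 1 h. It was then called lower in heated shoots at 2 h, at 15.24 against 29.95 FPKM (log2 ratio -0.93, q = 0.03 in the authors' deposited table). Up to 1 h its heated values had been the higher ones.

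In the other two the control level was highest at 2 h. OS11G0547000 stood in controls at 21.56, 47.64, 58.83, 68.78 and 0.61 FPKM over the 5 times. In heated shoots it stood at 17.02, 36.84, 54.3, 36.17 and 0.61 FPKM, and it was called lower at 2 h (log2 ratio -0.91, q = 0.01 in the authors' deposited table). OS09G0532400 stood in controls at 164.27, 180.3, 216.52, 226.46 and 0.91 FPKM and in heated shoots at 138.7, 161.17, 130.83, 134.6 and 0.85 FPKM. Its heated level was lower at 1 h and 2 h, with log2 ratios of -0.72 and -0.75, and neither was called (q = 0.14 and 0.12 in the authors' deposited table).

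At 2 h all 5 clock IDs were lower in heated than in control shoots, as were 103 of 151 members and 10731 of all 21160 records. A lower call was made for 2 of the 5 in the authors' deposited table, against 7.13% of all records. At 10 h the 5 IDs stood between 0.30 and 4.19 FPKM in controls and between 0.18 and 3.82 FPKM in heated shoots. The other 7 IDs of the clock list were no members. Their ratio of 10 h to 10 min in controls ran from 0.19 to 4.02, the lowest being that of an ID that missed the limit in heated shoots only. Over the whole clock list the authors' deposited table called 3 IDs lower and 1 higher at 2 h, against 7.13% and 11.9% of all records. It called none at 20 min or 1 h.

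**Figure D4:**
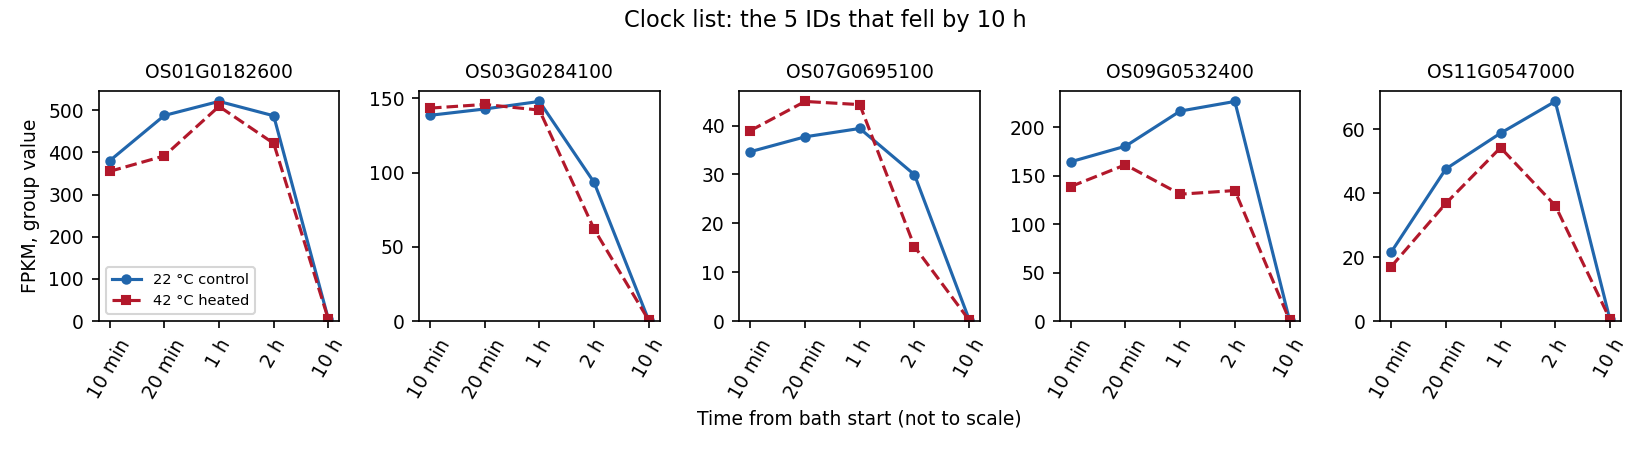
FPKM of the 5 clock-list members at the 5 times (linear axes from 0, times not to scale), controls as solid blue lines and heated shoots as dashed red lines. In each panel the heated 2 h point lies under the control 2 h point, and both lines end near 0 at 10 h.

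A separate part of the group did not hold a plateau but pulsed. In 21 records the controls were highest at 20 min, at 2 times the 10 min level or more; this pattern was defined after the values were seen. Their control median over the 5 times was 20.13, 110.2, 8.62, 5.93 and 1.29 FPKM. Their heated median was 20.85, 31.36, 37.54, 7.42 and 0.95 FPKM. Among all members 25 were at 2 times their 10 min level or more in the 20 min controls, or 16.6%, where 3.05% of all records were. In heated shoots 13 of the 21 were highest at 1 h, 6 at 20 min and 2 at 10 min.

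Because the 20 min controls define the pulse, lower heated values at 20 min are built into it. The pulse also requires a 1 h control below the 20 min control, so higher heated values at 1 h are partly built in as well. Of the 21, the authors' deposited table called 13 lower (61.9%) and none higher at 20 min, where it called 6.52% and 3.51% of all records. At 1 h it called 12 higher (57.1%) and 1 lower (4.76%), against 12.1% and 9.12% of all records in the authors' deposited table. In all 151 members, 8 were called lower at 20 min and higher at 1 h in the authors' deposited table (5.3%, against 1.08% of all records), and none the other way round. Whether the heat difference itself changed from 20 min to 1 h was not tested.

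Both DREB1 members belong to this pulse. Over the 5 times OS09G0522200 stood in controls at 45.16, 444.81, 5.91, 1.1 and 0.63 FPKM. In heated shoots it stood at 55.29, 337.14, 488.85, 65.06 and 1.68 FPKM. The authors' deposited table called it higher at 1 h (log2 ratio 6.15) and at 2 h (log2 ratio 4.98), each with q = 0.0, a value that rounds to 0 at 2 decimals. On the FPKM + 1 scale these were the largest ratios among the calls of members at 1 h and at 2 h. With 0.1 FPKM added in place of 1 it came second at 1 h, at 6.35, behind OS02G0757100 at 6.61.

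OS09G0522000 stood in controls at 39.88, 500.37, 4.36, 2.29 and 0.32 FPKM and in heated shoots at 18.09, 321.79, 209.91, 5.07 and 0.95 FPKM. At 10 min, which the rule used, it was called lower (log2 ratio -1.10, q = 0.03 in the authors' deposited table). It was called higher at 1 h (log2 ratio 5.30, q = 0.0 in the authors' deposited table) and not at 20 min or 2 h (q = 0.15 and 0.36 in the authors' deposited table). Control and heated shoots thus both held between 321.79 and 500.37 FPKM of each at 20 min, and at 1 h the levels were high in heated shoots alone. Over all 5 DREB1 IDs the authors' deposited table called 4 higher at 1 h and none lower, against 12.1% and 9.12% of all records. At 20 min it called 2 of the 5 lower, OS02G0677300 and OS09G0522100, and none higher, against 6.52% and 3.51% of all records. Neither of these is a member.

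Among the pulse records on no list, OS01G0597600 was the one with the second-lowest called ratio of the members at 20 min. It stood in controls at 8.47, 124.08, 1.35, 0.41 and 0.44 FPKM and in heated shoots at 6.52, 16.37, 20.12, 0.52 and 0.21 FPKM. Its log2 ratio was -2.85 at 20 min and 3.17 at 1 h (3.802 with 0.1 FPKM added), each with q = 0.0 in the authors' deposited table. OS10G0521900, with the largest called fall at 20 min (log2 ratio -3.11, q = 0.0 in the authors' deposited table), went from 9.8 to 55.12 FPKM in controls between 10 and 20 min. In heated shoots it stayed between 5.49 and 7.5 FPKM from 10 min to 1 h. OS02G0757100 stood at 45.09, 110.2 and 0.53 FPKM in controls up to 1 h, and at 123.74, 105.69 and 61.52 FPKM in heated shoots. It had the second-largest called rise at 1 h (log2 ratio 5.35, q = 0.0 in the authors' deposited table). At 10 min, which the rule used, it was already called higher (log2 ratio 1.44, q = 0.0 in the authors' deposited table).

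A pattern of the opposite kind appeared in 9 records, also picked out after the values were seen. Their controls were at 0.5 of the 10 min level or less at 1 h and at 2 times that low or more at 2 h. The control median over the 5 times was 26.6, 5.72, 0.14, 12.84 and 2.32 FPKM. In heated shoots it was 18.72, 23.71, 5.74, 19.88 and 2.04 FPKM. At 1 h 6 of the 9 were at 0.5 of their 10 min level or less in heated shoots too. In heated shoots 8 of the 9 were higher than in controls at 20 min, 6 of them (66.7%, against 3.51% of all records) by a call in the authors' deposited table. The 1 h controls define the dip, so higher heated values at 1 h are built into it. In the 20 min controls the median of the 9 was already at 0.34 of the 10 min level, and a low control raises that ratio too. All of the 9 but OS02G0757100 are also in the early class. OS02G0757100 is the only record in both the pulse and the dip.

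OS02G0629800 shows this dip. In controls it stood at 17.79, 1.51, 0.04, 7.24 and 0.18 FPKM, and in heated shoots at 13.95, 14.14, 4.68, 17.4 and 0.42 FPKM. The authors' deposited table called it higher at 20 min (log2 ratio 2.59, q = 0.0) and at 2 h (q = 0.01), and not at 1 h (q = 0.6), where the control value is close to 0. OS12G0569200 had the largest called rise of the members at 20 min (log2 ratio 3.46, or 4.55 with 0.1 FPKM added, q = 0.01 in the authors' deposited table). It stood at 8.77, 0.62, 0.04, 8.35 and 0.59 FPKM in controls and at 15.53, 16.81, 40.74, 60.32 and 1.52 FPKM in heated shoots, without a dip there. It was called higher again at 2 h (log2 ratio 2.71, q = 0.0 in the authors' deposited table).

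**Figure D5:**
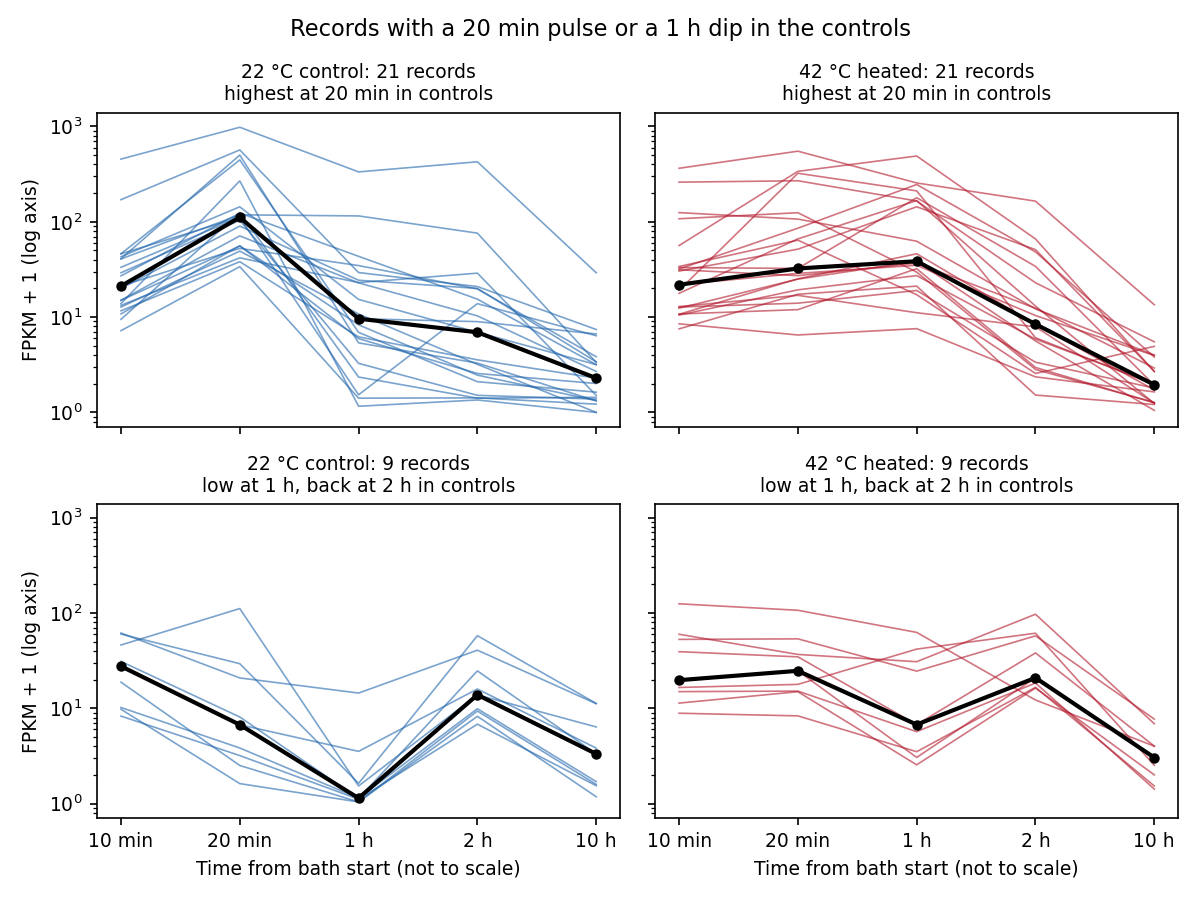
FPKM + 1 (log axis) over the 5 times (not to scale) for the 21 records with a 20 min pulse in controls (top) and the 9 with a 1 h dip in controls (bottom), each record a thin line and the median in black. The heated median of the pulse records is highest at 1 h, at 37.54 FPKM, where the control median is 8.62 FPKM.

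The largest called falls after heat at 1 h and 2 h were in transcripts outside the pulse and the dip, and on no list. OS04G0612500 stood in controls at 437.21, 427.59, 921.58, 433.3 and 41.71 FPKM and in heated shoots at 296.97, 220.32, 159.61, 80.73 and 17.39 FPKM. It was called lower at 20 min (q = 0.02), 1 h (log2 ratio -2.52, q = 0.0) and 2 h (q = 0.0) in the authors' deposited table, and is 1 of 6 members (3.97%, against 0.978% of all records) called lower at all 3 times. OS12G0603700 had the second-largest called fall at 1 h, at 5.09 against 30.95 FPKM (log2 ratio -2.39, and q = 0.0 in the authors' deposited table). With 0.1 FPKM added in place of 1 these 2 change places at 1 h, at -2.53 and -2.58. At 2 h the largest called falls were those of OS05G0567600, at 4.98 against 49.43 FPKM (log2 ratio -3.08), and OS06G0606700, at 9.38 against 59.83 FPKM (log2 ratio -2.55), each with q = 0.0 in the authors' deposited table.

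Lower calls at 1 h and 2 h were mostly in the late class. Of its 86 records the authors' deposited table called 22 lower at 1 h (25.6%, against 9.12% of all records) and 32 at 2 h (37.2% against 7.13%). It called 9 and 7 higher (10.5% and 8.14%, against 12.1% and 11.9%) at these times in the authors' deposited table. At 20 min the late class had 14 lower calls (16.3%, against 6.52% of all records) and 4 higher, a smaller share than the 11 of 49 (22.4%) in the middle class, which had no higher call, in the authors' deposited table. The middle class had 14 higher calls (28.6%) and 1 lower at 1 h, and 10 higher (20.4%) and 7 lower (14.3%) at 2 h in the authors' deposited table. In the 16 early records the authors' deposited table called 7 higher (43.8%) and none lower at 20 min. It called 4 higher (25%) and 1 lower at 1 h, and 7 higher (43.8%) and 2 lower (12.5%) at 2 h. Of all records it called 3.51%, 12.1% and 11.9% higher at 20 min, 1 h and 2 h, and 6.52%, 9.12% and 7.13% lower. The classes were cut on the control values that also enter these ratios: a low control at 20 min both makes a record early and raises its ratio. The direction in a class is therefore partly fixed by its definition, and no difference between classes was tested.

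Members were often highest at different times in the 2 baths. The highest of the control values was that at 10 min in 49 records, at 20 min in 56, at 1 h in 35 and at 2 h in 11. In heated shoots the same counts, in that order, were 68, 24, 48 and 11. Of the 56 records highest at 20 min in controls, 25 were highest at 1 h in heated shoots, 17 at 10 min and 12 at 20 min. Of the 35 highest at 1 h in controls, 19 were highest at 10 min in heated shoots. The highest of 4 near-equal values can change with small errors, whose size is unknown here. The same counts were not made over all records, so they cannot be read as a trait of the members. The rule also asks for a high level at 10 min in both baths, which partly builds in the 10 min counts.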

How the data were processed

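RNA of rice shoots was sequenced on an Illumina instrument, per the labels' protocols. Cutadapt, TopHat2 and Cufflinks, without versions, and the build IRGSP-1.0 stand in the submitters' processing notes. The authors deposited FPKM values in 1 column per group, so both libraries of a group were combined before deposit, and beside them, per the file headers, a q-value (2 decimals) and a log2 fold change for each time. No source used here gives the authors' test, or says whether counting used strand.

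For each of 37248 gene IDs on 48683 rows the row of highest mean was kept, and IDs with identical values were joined to records. Log2 ratios were computed on FPKM + 1. The planned limma model could not be run without values per library, so calls are the authors' q below 0.05, with the direction from FPKM. Backgrounds are records averaging 1 FPKM or more, a filter that all members passed. A value of 0 can be a failed estimate: no member was at 0 from 10 min to 2 h. At 10 h, which the rule used, 3 members were at 0 in controls and 2 in heated shoots. In 12 places members have neighbouring IDs (25 records), whose reads may overlap. The deposited log2 fold changes departed by more than 0.1 from the FPKM ratios in 0 member values at 1 FPKM or more.

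Members and lists were chosen with earlier results of these data known. Single IDs named are the listed ones and, at 20 min, 1 h and 2 h, the 2 largest called rises and falls; the listed IDs were singled out after their values were seen. Python 3.11.15 and pandas 2.3.3 were used; the rule and calls were tested on simulated data.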

Additional observations from a re-analysis of the deposited data

How the results depend on the processing

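The number of records was 151 with the limit of 0.2, 51 with a limit of 0.1, and 274 with a pseudocount of 0.1 FPKM inside the rule. Among those 51, the authors' deposited table called 3.92% higher at 20 min, and 5.88% were at 0.5 of their 10 min level or less at 20 min in controls. Among the 274 it called 11.7% higher at 20 min. With q below 0.01 in the authors' deposited table, 3.97% of the members were higher and 7.95% lower at 20 min, and 9.93% were higher at 2 h. Requiring a 2-fold difference as well left 9.27% lower at 20 min. The median log2 ratio at 1 h turned from -0.11 to 0.063 for the 274 records and to 0.0084 after rescaling each group by its median ratio over 9967 records; rescaling moved no heat ratio by more than 0.0824. The other 116 recomputed group values, which include a limit of 0.25, a 5 FPKM mean and summed rows, kept their sign and, for counts and shares, stayed within 1.5 times. Among these, the median log2 ratio at 2 h went from -0.51 to -0.18 for the 274 records, and that at 1 h to -0.37 for the 51. Counting 1 record per run of neighbouring IDs was added after the data were seen and is included in these. For the 27 single records named, 3 of 243 recomputed ratios changed sign, none of them called, and 6 others moved by over 1.5-fold, all with 0.1 FPKM added. The called ones were OS02G0757100 (5.35 to 6.61) and OS01G0597600 (3.17 to 3.802) at 1 h, OS09G0522200 at 2 h (4.98 to 5.76) and OS12G0569200 at 20 min (3.46 to 4.55). FPKM carries no counts, so depth sets no stated limit. No paired analysis was possible because the table holds no value per library, and leaving out replicates was not run for the same reason.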

Other observations

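Members lay next to each other in the order of gene IDs in 12 places, which hold 25 of the 151 records. OS09G0522000 and OS09G0522200, both on the DREB1 list, are a pair close in ID number, and the ID listed between them, OS09G0522100, missed the limit in heated shoots, with a ratio of 10 h to 10 min of 0.26 there and 0.09 in controls.

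A pulse at 20 min in controls was also seen outside the members, in OS09G0522100. OS09G0522100 stood at 11.83, 135.42, 0.44, 0.44 and 0.1 FPKM in controls over the 5 times and at 3.55, 33.57, 5.89, 0.27 and 0.18 FPKM in heated shoots. Of the 9 WRKY IDs, none of them a member, 7 were called lower at 20 min and 6 higher at 1 h in the authors' deposited table, which called 6.52% of all records lower and 12.1% higher at these times. Of the 9 JAZ IDs, against the same shares, 5 were called lower at 20 min and 6 higher at 1 h in the authors' deposited table.

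The 10-group profile of the members' median was matched with a Pearson's r of at least 0.95 by 42 records outside the group, as a description across groups that share time and bath. The members' own r with it had a median of 0.926 and ran from 0.392 to 0.9965.

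The largest heat ratio of any member at 1 h was not a call. It was in the pulse record OS09G0522500, at 165.76 FPKM in heated and 0.16 FPKM in control shoots (log2 ratio 7.17, q = 0.63 in the authors' deposited table); it was singled out after its values were seen.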
